A study of Rattus norvegicus with 15 samples.

Results

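Vagus nerve stimulation (VNS) was compared with sham in the rat hippocampus, using the 7 hippocampal libraries of a series of 15 (the other 8 were from cortex). The 4 VNS libraries came from rats whose implanted device stimulated the nerve for 30 min on each of 4 days. The 3 control libraries came from rats that carried a sham device. Rats of both groups also did a novelty preference task of 10 min on days 2 to 4, and were killed by decapitation right after the stimulation of day 4. RNA was ribosome-depleted total RNA. Strain, sex and age are not known from the labels, and the labels tie no library to a litter, day or cage. The p-values below therefore measure the spread between these 7 libraries, part of which may be technical. Libraries are called control 1 to 3 and VNS 1 to 4 in the order of their sample records.

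Sensory fibres of the vagus end in the nucleus of the solitary tract of the brainstem, which in turn reaches the locus coeruleus and the raphe nuclei. These are the main sources of noradrenaline and serotonin for the hippocampus, a forebrain structure needed for forming memories of places and events. Neuronal firing there switches on immediate early genes such as Fos and Arc within minutes, followed by slower genes for secreted factors such as Bdnf. Implanted vagus stimulators are used in the clinic against epilepsy and depression.

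The libraries held 16728486 to 51463555 counts over 18278 RefSeq transcript records. Ribosomal RNA records took 7.11% to 19.3% of the control counts and 9.34%, 31.6%, 73.1% and 31.3% of those of VNS 1 to 4. Once these 3 records and the 7SL RNA record (1.2% of VNS 3, 7.77% to 11.9% elsewhere) were left out, 28235506 to 30500217 counts remained in the controls. VNS 1 to 4 then held 42620738, 12147165, 4301901 and 24072751 counts, so VNS 3 was the shallowest library. A single record without a symbol, NM_001025002, took 27.494% of the remaining counts of VNS 3 and at most 0.5% of any other library. Values below are remaining counts scaled to a common library size (CPM), on library sizes scaled with TMM.

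The control libraries were checked against markers of the hippocampus and of neighbouring regions. In 2 of the 3, markers of forebrain excitatory neurons and of pyramidal cells were below the VNS libraries. All 10 tested markers of forebrain excitatory neurons were below every VNS library in controls 1 and 2. Neurod2, a transcription factor of these neurons, was at 0.65, 1.92 and 106.9 CPM in controls 1, 2 and 3 and at 204.7, 110.5, 132 and 134.8 CPM in VNS 1 to 4. Control 3 thus sat beside the VNS libraries for this gene, far above the other controls. The summed level of the list was 1020 and 372.3 CPM in controls 1 and 2, 6551 CPM in control 3 and 5455 to 8483 CPM after VNS.

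Pyramidal cell genes of the CA fields gave the same picture, and markers of the thalamus and of the midbrain and brainstem mostly the opposite one. All 11 tested CA1 and CA3 markers were below every VNS library in controls 1 and 2, and 0 of 11 were outside the VNS range in control 3. Wfs1, a CA1 marker, was at 47.9, 18.2 and 456 CPM in the sham libraries and at 782.5, 310.4, 311.2 and 546.2 CPM after VNS. Dentate granule cell markers were less uniform. In each of controls 1 and 2, 4 of 8 tested members were below every VNS library, beside 29.9% and 27.9% of all records. Their summed levels, 639.1 and 503 CPM, lay inside the VNS range of 457.9 to 901 CPM. The 10 tested thalamic markers summed to 3320 CPM in control 1, 994.6 CPM in control 2, 188.8 CPM in control 3 and 176 to 411.9 CPM after VNS. Control 1 was above every VNS library in all 10, and control 2 was above in 6 and below in 1. The 7 tested markers of midbrain and brainstem neurons summed to 61.3, 211.4 and 14.8 CPM in the sham libraries and to 10.5 to 42 CPM after VNS. Of these 7, control 1 was above every VNS library in 3 and control 2 in 6, and both were below in 0. The shares of all records above were 30.0% for control 1 and 29.2% for control 2. Tal1, a transcription factor of midbrain inhibitory neurons, was at 8.81, 52.1 and 3.11 CPM in the sham libraries and at 3.16, 8.27, 3.91 and 2.97 CPM after VNS. By summed level, striatal, cerebellar and hypothalamic markers were highest in control 1 but lowest in control 2. In control 1, Pvalb alone gave 166.4 of the 282 CPM of the cerebellar sum, and Trh 75.5 of the 79.97 CPM of the hypothalamic sum. Control 1 was above every VNS library in 8 of 10 striatal, 4 of 7 cerebellar and 1 of 7 hypothalamic markers. It was below in 0, 2 and 1 of them. The shares of all records were 30.0% above and 29.9% below. Control 2 was at 214.7, 148.1 and 5.12 CPM for these lists, and the lowest VNS library at 228.7, 160.9 and 5.82 CPM.

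Smaller departures were seen inside the VNS group. C1ql2, a synaptic organiser of dentate granule cells, was at 7.35 CPM in VNS 1 and at 94.5, 101.7 and 91.8 CPM in VNS 2 to 4. The hypothalamic peptide gene Trh was at 71.1 CPM in VNS 1, 0.16, 2.61 and 0.59 CPM in VNS 2 to 4, and 75.5, 1.05 and 0.47 CPM in the controls. VNS 1 therefore stood apart from its group in C1ql2 and in Trh. In VNS 1, Trh gave 71.1 of the 76.6 CPM of the hypothalamic list, so the high sum of that list there rests on Trh. VNS 2 had the highest summed level of thalamic markers of its group (411.9 CPM) and of midbrain markers (42 CPM). In bulk tissue, fewer cells of a type and less RNA per cell cannot be told apart, and regional composition cannot be told apart from treatment where controls 1 and 2 enter a value. Each control is therefore also given by itself, with no test.

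**Figure D1:**
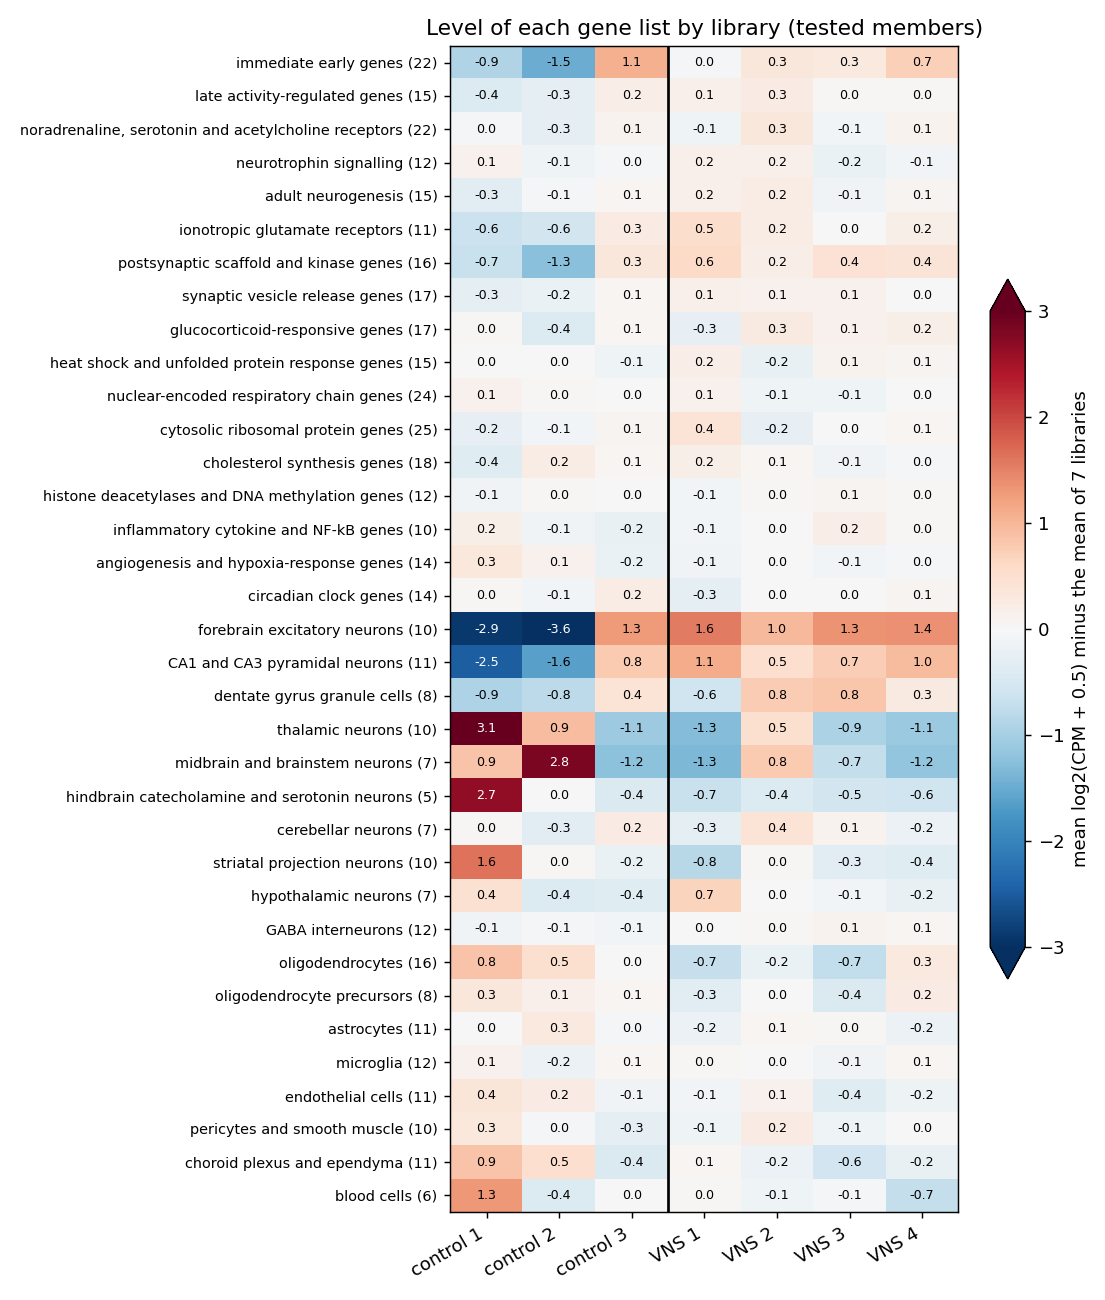
Mean level of each gene list in each library, as log2(CPM + 0.5) averaged over the list's tested members (their number in brackets) minus the mean of the 7 libraries, with controls left of the black line. Controls 1 and 2 are low for the forebrain, CA and immediate early lists and high for thalamic or midbrain lists, while control 3 lies near the VNS libraries in most rows and highest in the top row.

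The distance between libraries was then taken over all 12734 records that had at least 10 reads in 3 or more libraries. A record's distance was its log2(CPM + 0.5) in a library minus the mean of the VNS libraries, a VNS library being set against the other 3. The median absolute distance was 0.364 for control 1, 0.334 for control 2 and 0.158 for control 3. For VNS 1 to 4 it was 0.221, 0.205, 0.317 and 0.182. Control 3 was therefore as near to the VNS libraries as these were to each other, with the caveat that it was set against a mean of 4 libraries instead of 3. More than 2-fold from the VNS mean were 1905 records (15.0%) in control 1, 1652 (13.0%) in control 2 and 139 (1.09%) in control 3, against 252 to 1136 records for the single VNS libraries.

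**Figure D2:**
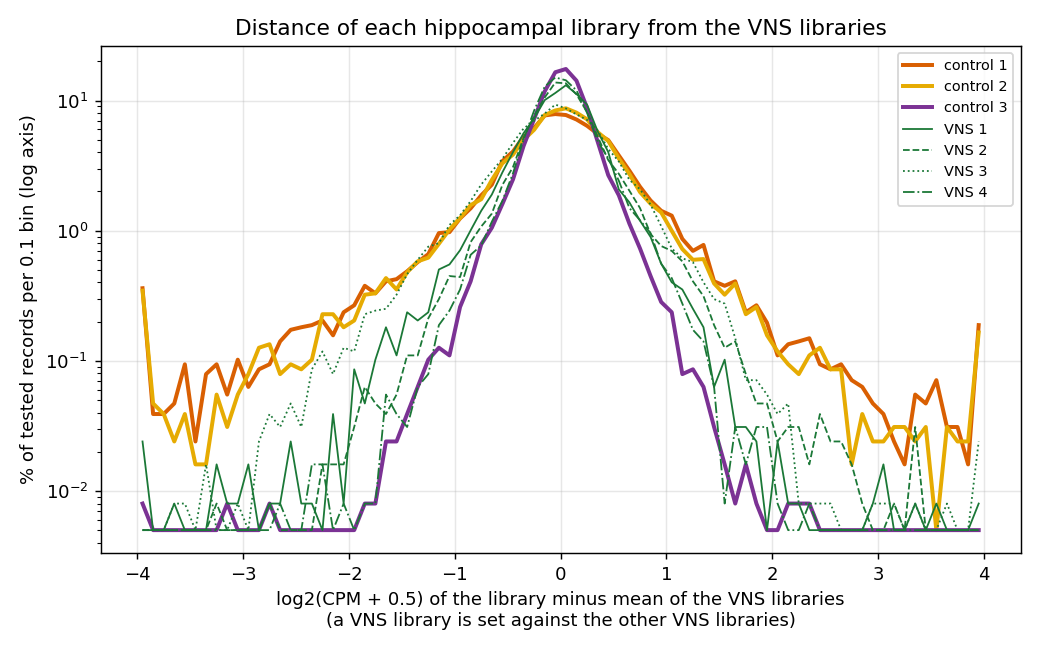
Share of the 12734 tested records (log axis) by distance of a library from the VNS mean, in log2(CPM + 0.5), in bins of 0.1, where the outermost bins collect all larger distances and empty bins lie on the bottom line. The curves of controls 1 and 2 have the widest flanks, the dotted curve of VNS 3 is the widest of the VNS group, and control 3 is the narrowest.

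No record differed between VNS and control at the threshold. Of 12734 records, 0 (0%) passed edgeR's quasi-likelihood test with Benjamini-Hochberg adjustment at 0.05, and the smallest adjusted p was 0.41. An unadjusted p under 0.05 was found for 1524 records (12.0%), of which 589 (4.63%) had higher and 935 (7.34%) lower values after VNS. The count depended on the tool and on control 3: DESeq2 called 14 records (2 higher and 12 lower after VNS), limma-voom called 0 (1883 at an unadjusted p under 0.05), and edgeR called 1328 once control 3 was left out. The count at an unadjusted p under 0.05 was 580 without control 1, 636 without control 2, 3371 without control 3, 837 without VNS 1 and 907 without VNS 3. Without controls 1 and 2 it was again 0, with 71 records at an unadjusted p under 0.05, in a fit where the lone control is assumed to vary like the VNS libraries.

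No member of any of the 35 gene lists described below passed the test. The libraries of the groups did not overlap for 1181 records (9.27%). All 4 VNS libraries were above all 3 controls for 563 records (4.42%) and below them for 618 (4.85%). Without VNS 2 or VNS 4 the count of 1181 became 2344 or 1890, without control 3 it became 4838, and without controls 1 and 2 it became 3256. The gap between the nearest VNS and control library was small: its median was 1.046-fold for the higher and 1.052-fold for the lower records, and its largest value was 1.73-fold and 1.81-fold. The control nearest to the VNS libraries was control 3 for 392 of the 563 higher records (69.6%) and for 435 of the 618 lower ones (70.4%). The VNS library farthest from the controls was VNS 3 for 338 (60.0%) and 364 (58.9%) of them. Only 7 records (0.0550%) were 1.5-fold or more apart on the log2(CPM + 0.5) scale, and only Car8 of these had a mean of 5 CPM or more.

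Car8 had the smallest p of all records. It encodes a carbonic anhydrase-related protein without enzyme activity that binds a receptor for inositol trisphosphate and is best known from Purkinje cells. The record, NM_001009662, lies on chromosome 5 from 26010374 to 26106856 (rn5, minus strand). Car8 was at 19.5, 19.25 and 16.2 CPM in controls 1 to 3 and at 6.75, 9.52, 6.52 and 8.39 CPM in VNS 1 to 4. Every VNS library was below every control, and the 3 controls lay close together although they differed so much in regional markers. The means were 18.3 ± 1.84 CPM (SD, n = 3) and 7.80 ± 1.42 CPM (SD, n = 4), and the log2 fold change was -1.22 (SE 0.19, adjusted p = 0.41, edgeR quasi-likelihood test). Against control 1, 2 and 3 alone the difference in log2(CPM + 0.5) was -1.29, -1.27 and -1.03. Over 21 alternative settings the log2 fold change ran from -1.33 to -1.04 and passed the threshold in 2 (adjusted p from 0.0003231 to 0.9999). Of the 7 tested cerebellar markers, which include Car8, 3 had higher and 4 lower values, and their summed level was 282, 148.1 and 196.5 CPM in the sham libraries and 160.9 to 242.5 CPM after VNS.

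The next smallest p belonged to Plaat1, a phospholipase and acyltransferase gene (chromosome 11, 78170405 to 78188507). It was at 10.6, 12.3 and 4.08 CPM in the sham libraries and at 1.55, 2.03, 1.96 and 1.58 CPM after VNS. The groups did not overlap, but control 3 was much nearer to the VNS libraries than controls 1 and 2. The log2 fold change of Plaat1 was -2.36 (SE 0.40, adjusted p = 0.41, edgeR), and -1.22 without controls 1 and 2. Kcnh5, a voltage-gated potassium channel, was at 90.1, 54.4 and 31.4 CPM in the sham libraries and at 14.4, 17.9, 8.80 and 23.0 CPM after VNS. Its fold change was -1.84 on the log2 scale (SE 0.39) and -0.93 without controls 1 and 2. Cdh6, a cadherin of cell adhesion, was at 79.0, 60.1 and 48.9 CPM in the sham libraries and at 29.2, 31.6, 26.4 and 38.8 CPM after VNS. For Cdh6, as for Kcnh5, control 1 was highest and control 3 nearest to the VNS range.

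Of the 20 records with the smallest p, 16 had lower and 4 higher values after VNS, and each had an adjusted p of 0.41. All 20 did not overlap between groups, beside 9.27% of all records, but the choice by p favours such records. Control 3 was the control nearest to the VNS libraries in 17 of them, control 2 in 2 and control 1 in 1. In a few of these genes the 3 controls lay close together. Fut9, a fucosyltransferase that makes the Lewis X sugar of the cell surface, was at 96.2, 94.7 and 96.1 CPM in the sham libraries and at 54.7, 76.9, 52.5 and 62.4 CPM after VNS. Slf1, a DNA repair factor, was at 27.1, 27.2 and 25.3 CPM in the sham libraries and at 19.2, 16.7, 16.3 and 18.3 CPM after VNS. In both genes the controls spanned a narrow band above the whole VNS group. The log2 fold changes were -0.63 (SE 0.15) for Fut9 and -0.58 (SE 0.13) for Slf1.

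Nr1d2, which encodes the clock repressor REV-ERB beta, was at 225.9, 236.2 and 188.6 CPM in the sham libraries and at 138.2, 162, 118 and 146.6 CPM after VNS. All VNS libraries were lower (log2 fold change -0.62, SE 0.15, adjusted p = 0.41, edgeR). Olfm3, a secreted olfactomedin, was at 134.3, 114.5 and 59.8 CPM in the sham libraries and at 40.1, 44.8, 29.7 and 49.95 CPM after VNS, with control 3 near the upper end of the VNS range. Trim59 was at 29.0, 25.3 and 18.5 CPM against 10.0, 12.4, 11.7 and 16.6 CPM. Cryz, a quinone reductase gene, was at 21.0, 20.3 and 16.2 CPM against 13.2, 12.0, 9.78 and 11.9 CPM. The fold changes of these genes were -1.31 (SE 0.28), -0.93 (SE 0.23) and -0.70 (SE 0.17) on the log2 scale.

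Several records among the 20 rested on few reads after VNS. Slc22a3, a transporter that clears noradrenaline and serotonin with low affinity, was at 3.87, 1.49 and 1.20 CPM in the sham libraries and at 0.17, 0.47, 0 and 0.24 CPM after VNS. Afp, the alpha-fetoprotein gene, was at 0.94, 0.70 and 1.03 CPM against 0.095, 0.31, 0 and 0.079 CPM. In VNS 3, where 1 read is worth more CPM than elsewhere, both had no read. Liph (0.46, 0.87 and 0.47 CPM in the controls) and 1 of 2 records of Rab11fip1 (0.72, 0.55 and 0.47 CPM) likewise had at most 0.16 CPM in any VNS library. Cspg4b (log2 fold change -1.38, SE 0.31) and the sugar nucleotide transporter gene Slc35d2 (-1.05, SE 0.25) were at 3.94 to 6.49 CPM in the sham libraries and at 1.30 to 2.90 CPM after VNS.

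The 4 records with higher values among the 20 were Fabp5, Nphp4, Denr and Hnrnpab. Fabp5 binds fatty acids and carries them in the cell; it was at 9.92, 13.1 and 16.8 CPM in the sham libraries and at 27.3, 22.6, 37.8 and 26.8 CPM after VNS. The controls did not reach the VNS range, and control 3 was nearest. Its log2 fold change was 1.09 (SE 0.24, adjusted p = 0.41, edgeR), or 0.75 without controls 1 and 2. Denr, a factor that lets ribosomes restart on a message, was at 22.7, 22.3 and 23.9 CPM in the sham libraries and at 32.8, 32.5, 44.0 and 33.4 CPM after VNS. Here the 3 controls again lay within a narrow band, and VNS 3 was far above the other VNS libraries (log2 fold change 0.63, SE 0.15). Nphp4, a protein of the base of the cilium, was at 20.9, 17.6 and 25.9 CPM against 36.0, 36.9, 51.8 and 35.0 CPM (0.89, SE 0.20). Hnrnpab, an RNA-binding protein, was at 65.8, 68.2 and 83.2 CPM against 125.3, 92.7, 144.7 and 126.4 CPM; its record overlaps one on the other strand, and the hippocampal counting used no strand, so these reads are uncertain.

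Ranked by the gap between the nearest VNS and control library, with a mean of 5 CPM or more, other genes came forward. Mfap4, a protein of the extracellular matrix, was at 2.80, 5.10 and 5.04 CPM in the sham libraries and at 19.4, 7.80, 18.3 and 8.19 CPM after VNS. VNS 1 and 3 were well above VNS 2 and 4, which were themselves above every control. Smpd2, a neutral sphingomyelinase, was at 4.16, 5.68 and 16.9 CPM against 26.9, 23.4, 29.3 and 27.4 CPM. Chgb, the chromogranin B of dense-core vesicles, was at 149.4, 194.6 and 210.1 CPM against 424.2, 268.6, 768.7 and 301.3 CPM. VNS 3 was the highest library for Chgb, as it was for Arl3 (128.7 CPM, against 43.0 to 55.0 CPM in the other VNS libraries and 23.5 to 31.6 CPM in the controls) and Gripap1 (201 CPM, against 95.5 to 113.6 and 67.4 to 71.8 CPM). Mcat, a mitochondrial enzyme of fatty acid synthesis, was tight in both groups, at 14.5, 11.6 and 15.2 CPM in the sham libraries and 20.4, 20.75, 19.9 and 19.5 CPM after VNS (log2 fold change 0.55, SE 0.15). Cilp2 was at 0.75 and 0.32 CPM in controls 1 and 2, 4.84 CPM in control 3 and 6.52 to 8.47 CPM after VNS.

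Among lower records in the same ranking, Bche, an esterase that breaks down acetylcholine, was at 10.9, 10.98 and 9.39 CPM in the sham libraries and at 6.30, 7.02, 2.61 and 6.41 CPM after VNS. VNS 3 was again the library farthest out. Rasgef1c was at 7.12, 7.25 and 7.98 CPM against 0.93, 5.38, 3.26 and 3.80 CPM, with VNS 1 lowest. Ptchd1 was at 16.1, 31.6 and 14.03 CPM against 7.37, 10.45, 10.75 and 6.25 CPM. The POU transcription factor gene Pou3f2 was at 34.1, 81.6 and 39.6 CPM against 19.3, 26.2, 27.0 and 27.0 CPM, so control 2 stood well above the rest for both genes. Samd10 was at 14.2, 12.0 and 8.62 CPM against 4.64, 4.99, 1.96 and 6.53 CPM (log2 fold change -1.29, SE 0.34). None of the genes named in this ranking passed the threshold with edgeR.

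**Figure D3:**
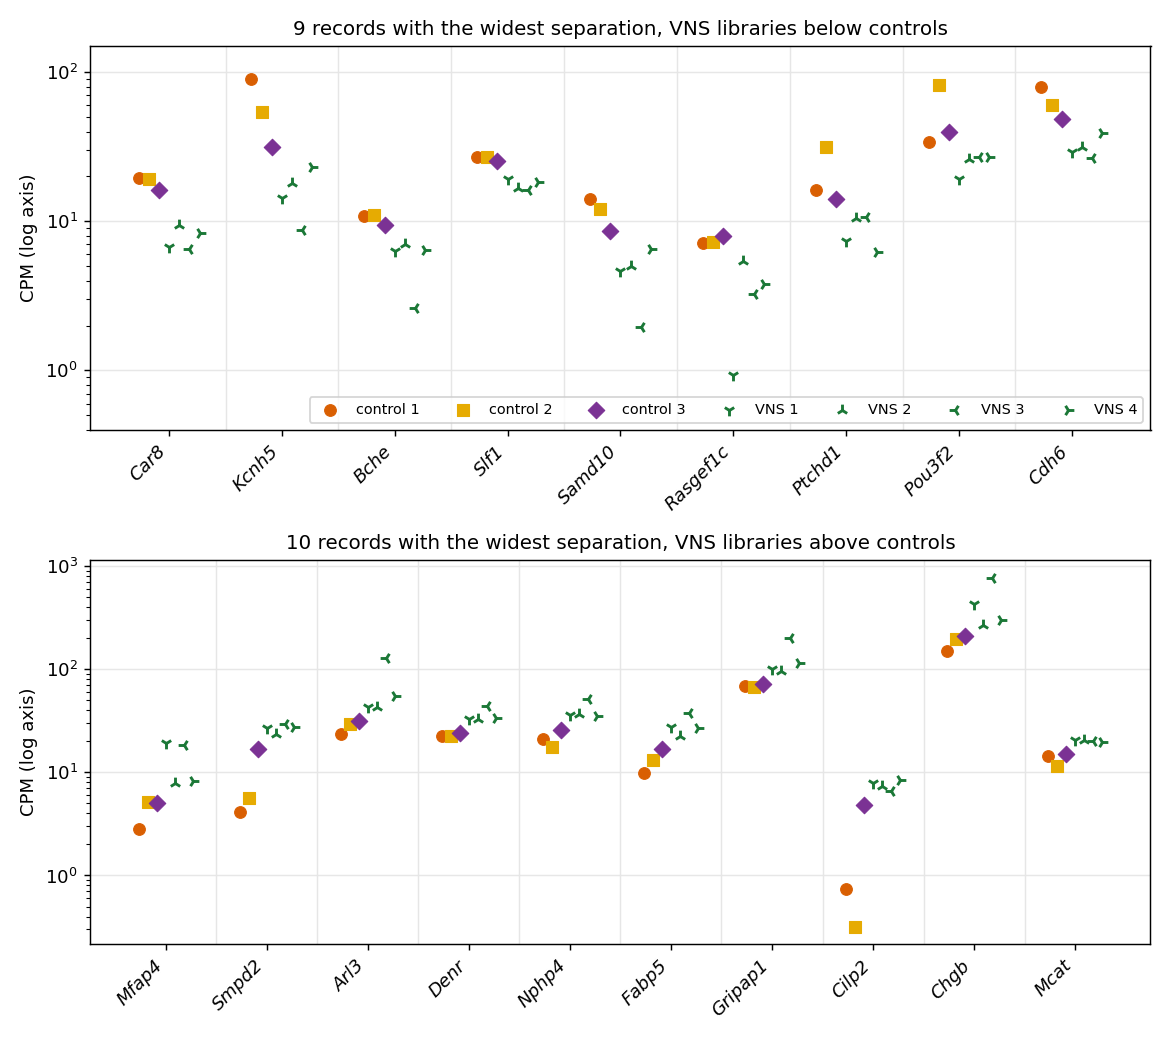
CPM (log axis) in each library for the 9 lower and 10 higher records with the widest gap between the nearest VNS and control library and a mean of 5 CPM or more, controls as filled symbols and VNS libraries as green marks. The 3 filled symbols of Car8, Slf1, Denr and Gripap1 lie close together, while those of Kcnh5, Smpd2 and Cilp2 are spread with control 3 nearest to the VNS marks.

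**Figure D4:**
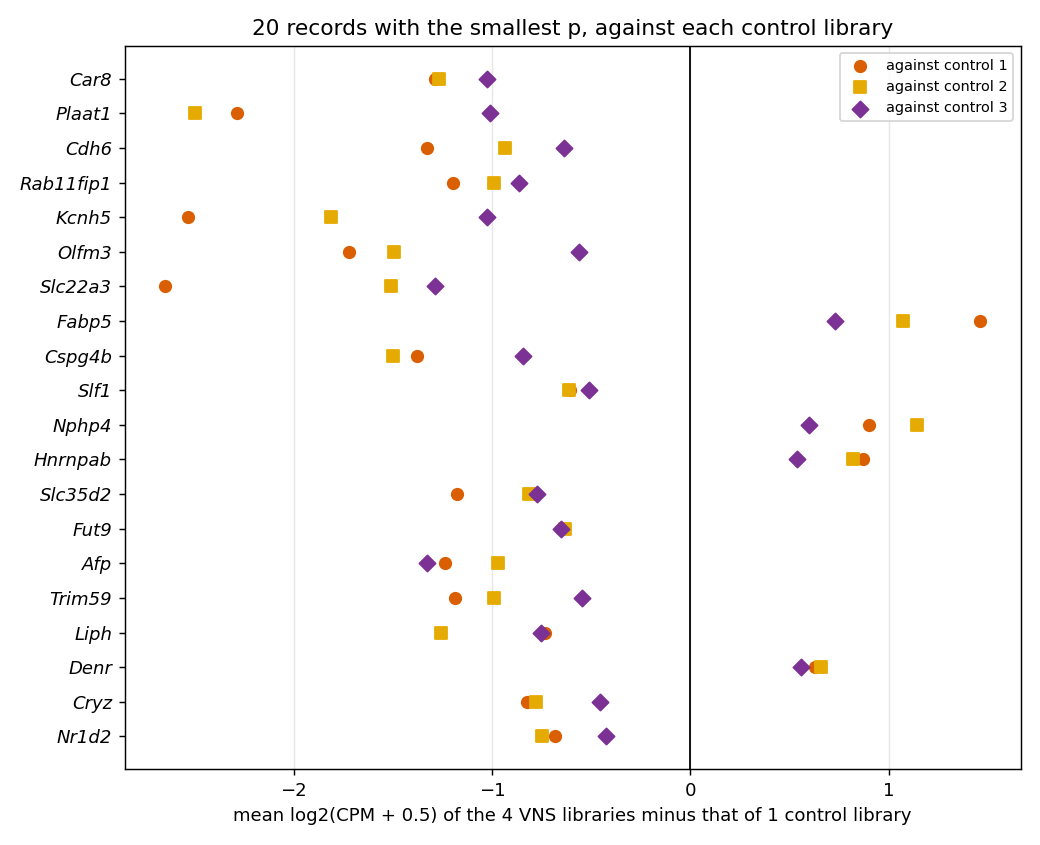
Mean log2(CPM + 0.5) of the 4 VNS libraries minus that of 1 control library (horizontal axis), for the 20 records with the smallest p, with a symbol for each control. All symbols of a record lie on the same side of 0, which the choice by p favours. For most records the diamond of control 3 is nearest to 0, as in Kcnh5 and Plaat1. In Car8, Fut9, Denr and Slf1 the 3 symbols nearly coincide.

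The immediate early genes, the rapid transcriptional answer to neuronal firing, separated control 3 from the other controls and from the VNS group. Of 22 tested members 0 passed, 14 had higher and 8 lower values after VNS, and the median log2 fold change was 0.27 beside -0.01 over all tested records. Control 3 was above all 4 VNS libraries in 16 of 22 members and below all of them in 0, where 14.0% and 12.4% of all tested records were above and below. Control 1 was below every VNS library in 15 members and above in 4, beside 29.9% and 30.0% of all records. Control 2 was below in 16 and above in 1, beside 27.9% and 29.2%. Dusp1, named after its values were seen, was at 149.2, 44.3 and 66.9 CPM in controls 1 to 3 and at 18.2 to 63.9 CPM after VNS. The median difference of the VNS libraries was 1.27 from control 1, 1.90 from control 2 and -0.72 from control 3 in log2(CPM + 0.5). The sign of the list's value therefore depended on the control: without controls 1 and 2 its median was -0.69, and without control 3 it was 1.58.

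Egr2, a zinc finger transcription factor, was the record of 5 CPM or more by which control 3 stood farthest above the VNS libraries. It was at 1.17, 0.17 and 24.1 CPM in the sham libraries and at 1.45, 4.21, 5.21 and 8.87 CPM after VNS. The next was Npas4, a factor induced by calcium entry into neurons, at 3.09, 1.89 and 20.04 CPM in the sham libraries and 2.09, 3.12, 9.12 and 9.82 CPM after VNS. For both genes VNS 3 and 4 lay between control 3 and the other libraries. Arc, whose protein acts at synapses in plasticity, was at 40.9, 24.7 and 395.3 CPM in the sham libraries and at 134.4, 160.8, 151.5 and 297.2 CPM after VNS. VNS 4 was far above the other VNS libraries and still below control 3. The log2 fold change of Arc was 0.28 (SE 0.86, adjusted p = 0.90, edgeR), but -1.08 without controls 1 and 2 and 2.51 without control 3.

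Fos and Egr1 are other widely used readouts of neuronal activity in this list, and Homer1 and Trib1 are further members. Fos was at 23.8, 18.8 and 25.1 CPM in the sham libraries and at 5.68, 18.7, 11.1 and 16.0 CPM after VNS. It was the 1 of 22 members whose groups did not overlap, beside 9.27% of all records. The gap between control 2 and VNS 2 was small for Fos (log2 fold change -0.81, SE 0.37, adjusted p = 0.41, edgeR). Egr1 was at 11.1, 15.4 and 70.4 CPM against 43.7, 41.3, 107.9 and 92.0 CPM, so control 3 fell inside the VNS range. Its log2 fold change was 1.13 (SE 0.67, adjusted p = 0.46), and -0.002 without controls 1 and 2. Homer1, a postsynaptic scaffold, was at 96.6, 52.3 and 238.3 CPM against 212.9, 165.6, 180.5 and 212.4 CPM. Trib1, the member with the smallest p, was at 16.7, 8.36 and 15.7 CPM against 7.18, 9.52, 10.4 and 6.29 CPM, and its groups overlapped.

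**Figure D5:**
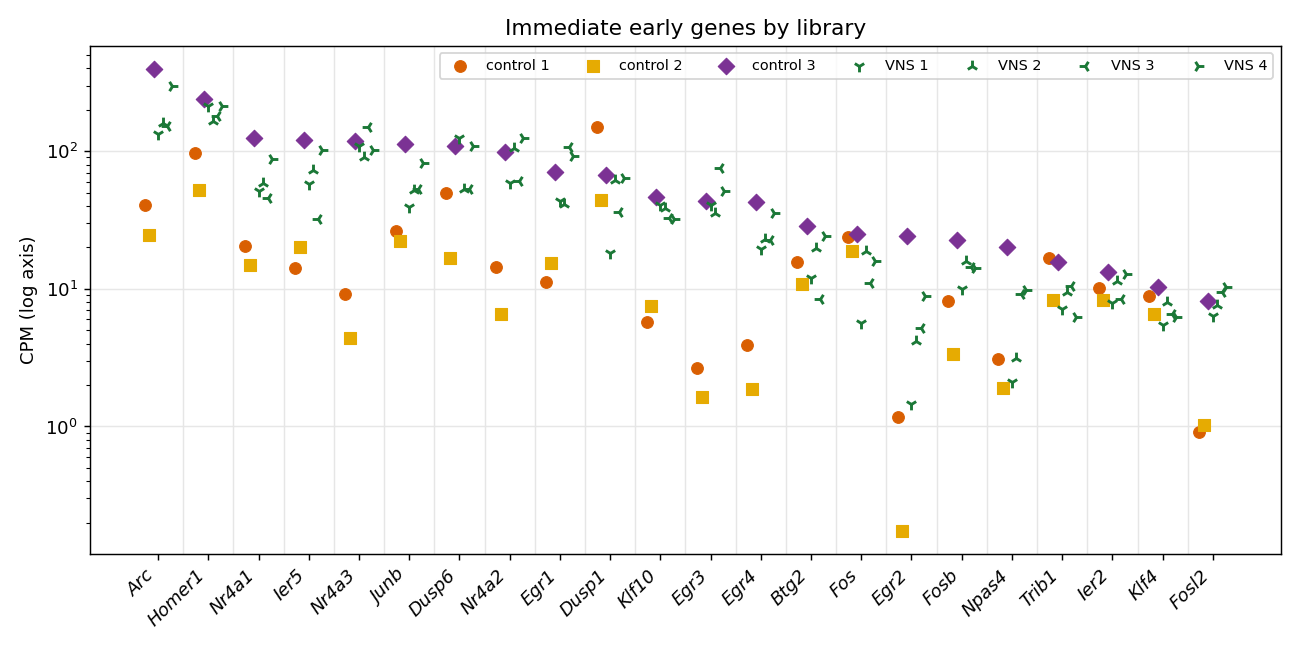
CPM (log axis) of the 22 immediate early genes in each library, ordered by their level in control 3. The purple diamond of control 3 is the highest symbol or near it in most columns, and the orange and yellow symbols of controls 1 and 2 are mostly the lowest. Dusp1, where control 1 is highest, departs from this order, as do Fos, Trib1, Klf4 and Ier2 among others.

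Many immediate early genes are switched on through the transcription factor CREB, which binds the cyclic AMP response element, whose core is TGACG, written as its reverse complement where it lies on the other strand. The 250 bases before the start site, as given by RefSeq for assembly GRCr8, are printed for the members by which control 3 stood out most, Egr2 and Npas4, and for Nr4a1, a nuclear receptor that was added after its values were seen (20.6, 15.0 and 123.8 CPM in the controls, 51.75, 58.8, 45.6 and 87.3 CPM after VNS). Each is written 5′ to 3′ on the strand of its gene, with the core in capitals on whichever strand it was found.
Egr2, chr20:21054442-21054691, minus strand: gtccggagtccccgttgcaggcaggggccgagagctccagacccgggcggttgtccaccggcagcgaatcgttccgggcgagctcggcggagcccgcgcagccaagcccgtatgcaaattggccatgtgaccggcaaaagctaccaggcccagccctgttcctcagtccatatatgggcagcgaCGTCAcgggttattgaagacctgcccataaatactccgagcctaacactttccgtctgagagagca
Nr4a1, chr7:134259888-134260137, plus strand: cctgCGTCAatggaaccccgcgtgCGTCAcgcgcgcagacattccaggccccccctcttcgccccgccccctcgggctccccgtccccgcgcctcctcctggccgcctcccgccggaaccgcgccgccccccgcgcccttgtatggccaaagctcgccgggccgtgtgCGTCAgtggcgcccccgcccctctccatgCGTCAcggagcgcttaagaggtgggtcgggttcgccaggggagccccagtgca
Npas4, chr1:211716103-211716352, minus strand: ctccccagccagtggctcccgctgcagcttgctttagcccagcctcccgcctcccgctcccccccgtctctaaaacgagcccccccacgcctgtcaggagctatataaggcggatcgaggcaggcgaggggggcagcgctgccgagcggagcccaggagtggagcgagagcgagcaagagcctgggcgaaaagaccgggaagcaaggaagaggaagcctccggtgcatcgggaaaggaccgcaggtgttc
Egr2 held 1 core, Nr4a1 held 4 and Npas4 held 0 in this window. Of 33469 promoters in the table, 6097 (18.2%) held at least 1 core on either strand and 58 (0.17%) held 4 or more. Of the 16 listed immediate early genes with a promoter in the table, 9 did (56.2%). A match describes these letters only and shows no binding.

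Of 15 tested slower activity-regulated genes 0 passed and the median log2 fold change was 0.10. Control 1 was below every VNS library in 9 members and control 2 in 7, beside 29.9% and 27.9% of all records. Control 3 was above them in 2 and below in 1, beside 14.0% and 12.4%. The median difference of the VNS libraries was 0.39 from control 1, 0.18 from control 2 and -0.09 from control 3 in log2(CPM + 0.5). Scg2, the secretogranin II of secretory vesicles, was at 205.7, 371.5 and 233.7 CPM in the sham libraries and at 280.5, 291.5, 541.9 and 270.4 CPM after VNS, with VNS 3 highest. Nrn1, a growth factor of neurites, was at 148.7, 109.3 and 172.6 CPM against 238.2, 180.1, 223.2 and 149.5 CPM. Sorcs3, a sorting receptor of the synapse, was at 73.0, 48.1 and 87.4 CPM against 106.2, 106.4, 94.2 and 80.6 CPM. In both genes VNS 4 overlapped control 3. The 1 of 10 Bdnf records with the most reads, which encodes the brain-derived neurotrophic factor, was at 0.098, 0.35 and 1.37 CPM against 1.33, 3.28, 0.65 and 1.11 CPM (log2 fold change 1.45, SE 0.87, adjusted p = 0.46, edgeR). Reads shared between Bdnf records were assigned to none of them, so this is not the level of the gene.

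Of 12 tested members of the neurotrophin list, 7 had higher and 5 lower values, 0 passed, and 1 did not overlap between groups, beside 9.27% of all records. That member was Cntf, the ciliary neurotrophic factor gene, named after its values were seen, at 11.7, 9.08 and 6.55 CPM in controls 1 to 3 and 6.06, 5.46, 2.61 and 4.04 CPM in VNS 1 to 4. Ntrk2 (the receptor of brain-derived neurotrophic factor, 1 of 2 records) was at 450.7, 660.8 and 611.2 CPM in the sham libraries and at 492, 596.1, 909.8 and 530.8 CPM after VNS. Sort1, the sortilin that sorts neurotrophins, was at 1148, 796.6 and 1548 CPM against 1883, 1342, 1141 and 1575 CPM. Fgf1 had the smallest p of the list, at 8.68, 17.7 and 1.14 CPM against 0.71, 2.42, 0 and 0.87 CPM, and for it control 3 again lay inside the VNS range while controls 1 and 2 did not.

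Noradrenaline, serotonin and acetylcholine are the transmitters released by the brainstem and basal forebrain systems that the vagus reaches. Of 22 tested receptor genes for them, 11 had higher and 11 lower values, 0 passed, and 1 did not overlap between groups, beside 9.27% of all records. Chrm1, the M1 muscarinic receptor of pyramidal neurons, was at 5.63, 1.02 and 147.8 CPM in the sham libraries and at 176.6, 140.1, 143.7 and 151.4 CPM after VNS. Chrm2, the M2 receptor, had the smallest p of the list and was at 21.1, 33.7 and 7.58 CPM against 4.16, 6.01, 7.17 and 9.30 CPM. Control 3 was inside the VNS range for both receptors. The nicotinic subunit gene Chrnb2 was at 222.7 CPM in control 1 and between 60.0 and 85.2 CPM in all others.

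Genes of glutamatergic synapses had higher values after VNS, and did so through controls 1 and 2. Of 16 tested postsynaptic scaffold and kinase genes 14 had higher values, with a median of 0.64 that was 0.03 without controls 1 and 2. Camk2a, the main kinase of the postsynaptic density, was at 567.8, 224.2 and 3318 CPM in the sham libraries and at 4049, 2586, 3688 and 3276 CPM after VNS. Among 11 tested ionotropic glutamate receptor genes 8 had higher values. Gria1, an AMPA receptor subunit, was at 66.4, 205.5 and 771.3 CPM against 1132, 680.3, 765.4 and 907.7 CPM, and the NMDA receptor subunit gene Grin2a at 239.4, 150.9 and 657.8 CPM against 1115, 567.4, 570.9 and 664.8 CPM. Control 3 lay inside the VNS range for all 3 of these genes.

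In the presynaptic list 12 of 17 tested members had higher values, and 3 did not overlap between groups, beside 9.27% of all records. Syp, the vesicle protein synaptophysin, was at 1403, 1239 and 1429 CPM in the sham libraries and at 1905, 1604, 1685 and 1538 CPM after VNS. The others were Vamp2, which drives vesicle fusion (713.8, 622.6 and 913.2 CPM against 1032, 936.5, 1397 and 992.9 CPM), and Cplx2, a regulator of fusion (62.5, 158.3 and 403.8 CPM against 426.7, 420.3, 742.9 and 411.6 CPM), both named after their values were seen. In each of the 3 genes control 3 was the control nearest to the VNS libraries. Syt2, the calcium sensor of fast synapses of the hindbrain, had the smallest p of the list, at 390.1, 305.8 and 40.0 CPM against 23.8, 53.6, 10.4 and 43.0 CPM.

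Glucocorticoid-responsive genes, which read out stress hormone, had 9 members with higher and 8 with lower values of 17 tested (median 0.01), and 0 passed. Fkbp5, a brake on the glucocorticoid receptor, was at 33.4, 34.2 and 80.0 CPM in the sham libraries and at 98.7, 100.9, 107.9 and 76.3 CPM after VNS. Control 3 thus lay inside the VNS range and controls 1 and 2 below it (log2 fold change 0.96, SE 0.32, adjusted p = 0.41, edgeR, and 0.26 without controls 1 and 2). The chaperone gene Hsp90ab1 was at 622.1, 676.2 and 723.6 CPM against 1114, 759.7, 1021 and 888.8 CPM and did not overlap between groups, while Hspa8, another chaperone, was at 783.1, 747.5 and 609 CPM against 734.8, 597.9, 686.6 and 651.6 CPM. Of 15 tested heat shock and unfolded protein response genes 10 had higher values, with a median of 0.04.

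Clock genes were the other pathway in which control 3 often lay above the VNS group. Control 3 was above all 4 VNS libraries in 7 of 14 tested members and below them in 0, beside 14.0% and 12.4% of all records, and the median difference from it was -0.35, against -0.12 from control 1 and -0.004 from control 2. Nr1d2, described above, was lower than in every control. Tef, an output factor of the clock, was at 318.1, 421.2 and 563.2 CPM in the sham libraries and at 503.8, 474.1, 425.9 and 530.5 CPM after VNS. Bhlhe40, a repressor that also answers to activity, was at 157.4, 104.3 and 157.3 CPM against 118.7, 107.7, 112.1 and 181.7 CPM. Over the list 6 members had higher and 8 lower values (median -0.09).

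Oligodendrocyte genes, those of the cells that make myelin, had lower values after VNS in all 16 tested members, beside 51.1% of all tested records, and 0 passed. Cnp, an enzyme of myelin, was at 1261, 1003 and 718.5 CPM in controls 1 to 3 against 488.3, 610, 379.9 and 949.9 CPM in VNS 1 to 4. VNS 4 was above control 3 in this gene, so the groups overlapped. Summed over the list, VNS 4 (9395 CPM) was also above control 3 (8176 CPM). VNS 1 to 3 were below control 3, at 4840, 6888 and 4003 CPM. Ugt8, which makes myelin galactolipids, was at 313.1, 250.8 and 188.3 CPM against 107.6, 134.8, 80.5 and 185.8 CPM. It was the 1 of 16 members without overlap, by a narrow gap, beside 9.27% of all records. The median difference was -1.16 from control 1, -0.84 from control 2 and -0.36 from control 3. Of 8 tested genes of oligodendrocyte precursors, 7 had lower values (median -0.39), among them the lineage factor Olig2 at 115.4, 103.2 and 67.0 CPM in the sham libraries and 49.5, 76.2, 48.2 and 81.3 CPM after VNS.

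No member of the other glial, vascular and blood lists passed. Astrocyte genes had 4 members with higher and 7 with lower values of 11 tested, with Glul, the glutamine synthetase gene, at 1919, 2430 and 2085 CPM in the sham libraries and 1601, 2160, 2111 and 1768 CPM after VNS. Agt, the angiotensinogen gene, which astrocytes of the thalamus and brainstem express most, was at 496, 1003 and 185.3 CPM against 132.1, 328.1, 168.8 and 185 CPM. Microglial genes split into 6 higher and 6 lower of 12 tested. C1qb, a complement subunit, was at 30.1, 25.4 and 30.9 CPM against 34.0, 32.4, 36.2 and 35.8 CPM, a narrow difference without overlap (adjusted p = 0.41, edgeR). Among 11 tested endothelial genes 10 had lower values (median -0.21), and Slc16a1, a lactate transporter, was at 135.8, 136.7 and 70.6 CPM against 59.8, 64.4, 46.9 and 63.3 CPM. All 6 tested blood cell genes and 8 of 11 choroid plexus and ependymal genes had lower values, with medians of -0.58 and -0.17. Haemoglobin Hbb was at 203.9, 66.5 and 80.7 CPM against 78.3, 71.5, 32.9 and 38.6 CPM, so control 1 was the highest library.

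The remaining pathway lists had median log2 fold changes between -0.22 and 0.16. In the angiogenesis and hypoxia list 10 of 14 tested members had lower values, yet its member with the smallest p, Pfkfb3, an activator of glycolysis, was at 32.7, 32.3 and 40.6 CPM in the sham libraries and at 54.2, 47.9, 54.7 and 48.6 CPM after VNS, above every control. Cytosolic ribosomal protein genes had higher values in 20 of 25 tested members, by a median of 0.11. Rpl5, one of them, was at 30.0, 32.7 and 36.5 CPM against 44.9, 38.8, 54.7 and 47.2 CPM. Histone deacetylase and DNA methylation genes had higher values in 9 of 12 members, although Hdac11 was at 252.6, 520.8 and 194.4 CPM against 127.2, 210.3, 134.6 and 209.8 CPM, and Hdac5 at 227.7, 209.6 and 204.5 CPM against 139.7, 199.2, 136.9 and 188.5 CPM. Hdac5 did not overlap between groups, and Hdac11 did.

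Inflammatory genes had 6 members with higher and 4 with lower values of 10 tested. Tgfb1, a cytokine that restrains inflammation, was at 8.91, 6.75 and 5.81 CPM in the sham libraries and at 9.92, 9.36, 15.6 and 10.25 CPM after VNS, and Nfkbia, a target and inhibitor of NF-kB, at 53.6, 46.8 and 38.5 CPM against 33.2, 63.1, 57.7 and 44.65 CPM. Tgfb1 was higher in every VNS library and Nfkbia overlapped. Cholesterol synthesis genes split into 9 higher and 9 lower of 18, and respiratory chain genes into 10 higher and 14 lower of 24. Markers of adult neurogenesis, which continues in the dentate gyrus, had 9 members with higher and 6 with lower values of 15. Mcm2, a DNA replication factor, was at 5.33, 6.23 and 3.88 CPM against 3.07, 2.34, 1.30 and 3.05 CPM without overlap, and Tubb3, a tubulin of neurons, at 636, 484.6 and 388.1 CPM against 398.2, 421.6, 353.5 and 463.3 CPM with overlap.

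Each control was also set against the VNS libraries by itself. Control 1 was above all of them by 2-fold or more in 394 records (3.09%) and below in 598 (4.70%), control 2 in 323 (2.54%) and 532 (4.18%), and control 3 in 4 (0.0314%) and 2 (0.0157%). Control 1 stood farthest above in Slc6a3 and Th, the transporter and the synthetic enzyme of dopamine neurons. Slc6a3 was at 117.7 CPM in control 1, 1.34 CPM in control 2 and at most 0.24 CPM elsewhere, and Th at 76.0 CPM, 2.48 CPM and at most 2.24 CPM. Shox2, a transcription factor of the thalamus, was at 138.9 and 48.8 CPM in controls 1 and 2, 6.55 CPM in VNS 2 and at most 0.65 CPM in the others. Control 2 stood farthest above in the zinc finger gene Bnc2, at 51.9 CPM, while control 1 was at 5.82 CPM, control 3 at 0.20 CPM and the VNS libraries at most at 1.09 CPM. Next in order were Tfap2b and Ebf3, transcription factors with expression in the midbrain and brainstem, at 63.0 and 71.7 CPM, while control 1 was at 0.94 and 9.24 CPM and VNS 2 at 3.67 and 4.37 CPM. The libraries left over were at or below 0.33 CPM for both genes.

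For control 3, the 5 records farthest above the VNS range and the 5 farthest below were taken, and Car8, Lnc-hc and Hsf2 among them lay on the same side of that range in all 3 controls. Besides Egr2, Npas4 and Car8 it stood above the VNS libraries in Lnc-hc (12.3 CPM against 6.52 to 7.88 CPM) and Stard8 (23.9 CPM against 8.80 to 15.6 CPM). Controls 1 and 2 were also above the VNS group for Lnc-hc, at 9.07 and 11.5 CPM, but within it for Stard8, at 14.5 and 12.5 CPM. Control 3 was farthest below in Cartpt, a neuropeptide precursor, at 1.07 CPM against 2.65 to 6.90 CPM after VNS and 9.50 and 11.7 CPM in controls 1 and 2. Hsf2, a heat shock transcription factor, was at 25.3, 30.0 and 17.3 CPM in the sham libraries and at 44.2, 36.7, 55.7 and 33.5 CPM after VNS, below the VNS range in all 3. Glra1, a glycine receptor gene of the brainstem, was at 0.33 CPM in control 3 and 1.28, 4.91, 1.30 and 1.03 CPM after VNS, while controls 1 and 2 were far above, at 30.02 and 59.6 CPM. Fcrl2 was at 5.48 CPM in control 3 and 11.4 to 15.0 CPM after VNS, with controls 1 and 2 at 12.6 and 7.51 CPM. Thbs1, a matrix glycoprotein of synapse formation, was at 1.67 CPM in control 3 and 13.5, 4.45, 7.17 and 3.52 CPM after VNS, while controls 1 and 2 were inside that range, at 4.85 and 4.31 CPM.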

How the data were processed

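Total RNA depleted of ribosomal RNA was sequenced from 4 VNS and 3 sham hippocampi. The deposited values are raw read counts per RefSeq transcript record, made by the authors with featureCounts 1.4.6-p2 on rn5 and with no strand option, per the file headers. The submitters' processing notes also name FastQC 0.10.1, Trimmomatic, Bowtie2, SAMtools 0.1.19 and edgeR; no aligner setting is known from them. With records counted singly and no strand, reads shared between records of a gene went unassigned (562 symbols have 2 or more records), and reads of the 693 records that overlap opposite-strand exons are uncertain. Symbols came from a RefSeq table of GRCr8, used for names only, for 17339 of 18278 records.

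The 3 ribosomal records and the 7SL record were left out, records with at least 10 reads in 3 or more libraries were kept, and these were tested in R 4.3.3 with edgeR 4.0.16 (TMM, glmQLFit, glmQLFTest, two-sided, Benjamini-Hochberg, threshold 0.05). CPM use TMM-scaled library sizes, and distances between libraries use log2(CPM + 0.5). DESeq2 1.42.0, limma 3.58.1 (voom), sva 3.50.0, other scalings and filters, and leaving out each library were alternatives. The scripts were tested on simulated data. Cortex libraries were not used here.

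The comparison, the 35 gene lists and the tests were chosen with earlier results of these data known. Genes were named by a rule: the 20 smallest p, the 10 widest gaps per direction at a mean of 5 CPM or more, the 5 records per direction farthest from the VNS range for each control, and in each list the 2 members with most reads per kilobase and the 1 with the smallest p, plus Car8, Arc, Fos, Egr1, Bdnf and Fkbp5. Records with placeholder symbols were passed over. Genes named otherwise, such as markers in the check of the labels, were chosen after their values were seen. A few genes that this rule or the lists hold are not reported here.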

Additional observations from a re-analysis of the deposited data

Results flagged for a closer look

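Of 190 values tested for a single library far from the rest of its group of 4, 23 stood out. The cutoff flags about 1 in 20 for independent and normally distributed values. Most values here were CPM of genes named by rule, which need be neither, so the 23 cannot be read against that rate. Only the VNS group was large enough for this test. VNS 3, the shallowest library with 73.1% ribosomal counts, stood out in 8. It was highest of its group in Nphp4 (51.8 CPM), Denr (43.99 CPM), Arl3 (128.7 CPM), Scg2 (541.9 CPM), Tgfb1 (15.6 CPM) and Epas1 (411.9 CPM), a hypoxia-response factor. It was lowest in Bche (2.61 CPM) and in its share of 7SL RNA (1.2%, against 7.77% to 9.08%).

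VNS 1 stood out in 5. It was lowest in the granule cell gene C1ql2 (7.35 CPM, against 91.8 to 101.7 CPM) and in Pou3f2 (19.3 CPM), and highest in Slc17a7, the glutamate transporter of forebrain neurons (2472 CPM), the striatal phosphodiesterase gene Pde10a (112.2 CPM) and the hypothalamic peptide gene Trh (71.1 CPM).

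VNS 2 stood out in 8, all of them as the highest library, and most of these genes mark regions outside the hippocampus. Prkcd, a kinase gene of thalamic neurons, was at 66.1 CPM (against 9.94 to 12.0 CPM), Shox2 at 6.55 CPM, Wnt9b at 5.15 CPM, Calb2 at 42.6 CPM, Tfap2b at 3.67 CPM, Ebf3 at 4.37 CPM, the glycine receptor gene Glra1 at 4.91 CPM and Pomc at 7.18 CPM. For the first 7 of these genes a control library, 1 or 2, was higher still.

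VNS 4 stood out in 2 activity-related genes, Arc (297.2 CPM, against 134.4 to 160.8 CPM) and Bhlhe40 (181.7 CPM, against 107.7 to 118.7 CPM). Control 3 was at 395.3 CPM and 157.3 CPM for these genes.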

How the results depend on the processing

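No paired analysis was possible because the labels give no replicate numbers that the groups share. Of 21 alternative settings, 19 also called 0 records, at unadjusted p under 0.05 in 71 to 1883 records. DESeq2 called 14, and leaving out control 3 called 1328, so leaving out each library in turn gave 0 to 1328. The count of records without overlap ran from 1619 to 4838 when 1 library was left out, with 2344 without VNS 2, 1890 without VNS 4 and 4838 without control 3, and was 3256 without controls 1 and 2; fewer libraries make an overlap less likely. Of 778 values of 38 named genes under these settings, 743 kept direction and side of the threshold, 30 passed it (8 with DESeq2, 22 without control 3) and 5 changed sign. Those 5 were Arc without VNS 4 (-0.04), control 1 (-0.17), control 2 (-0.23) or controls 1 and 2 (-1.08), and Egr1 without controls 1 and 2 (-0.001965). Without control 3 Arc was at 2.51 (adjusted p = 0.007919, edgeR). Of 35 list medians, 14 changed sign without controls 1 and 2, 8 without control 1 and 4 without control 2 or with 1 surrogate variable. Leaving out the 2 records that took 1% or more of the remaining counts of VNS 3, a choice made after seeing the data, called 0 records. The depth of VNS 3 (4301901 remaining counts) limits every record below a few CPM.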
